A study of Mus musculus with 10 samples.

Results

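Nwd2 was examined as 1 gene of 32531 in ribosome-bound RNA of the mouse medial habenula. It was chosen by its reads in these same libraries, as CPM (reads per 1000000 gene reads) and as a rank among genes, so its levels and ranks are a description with no test. The data were 10 libraries, 5 of the left and 5 of the right medial habenula of adult Chat-TRAP mice of the line DW167. In this BAC transgenic line the regulatory region of Chat, the gene of choline acetyltransferase, drives the ribosomal protein Rpl10a fused to EGFP, so that the ribosomes of cholinergic neurons, and the RNA on them, can be captured by an EGFP antibody, a method known as TRAP. All libraries of both sides carried the transgene and all were pull-downs. Unpurified RNA was not analysed here. No label says whether 1 animal or a pool stands behind a library, so p-values measure only the spread between these libraries, which may be technical. With no other tissue to set beside it, the word habenular in the description of Nwd2 as an abundant habenular transcript could not be tested, while its abundance could be seen in every library.

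Nwd2 encodes a large protein with a NACHT domain, a nucleotide-binding module, and WD repeats, which fold into propellers that bind other proteins. Proteins of this class, the STAND NTPases, switch between a closed and an open state with the bound nucleotide and often assemble into larger complexes. Among its relatives are Apaf1, the scaffold of the apoptosome, and the NOD-like receptors of innate immunity. The medial habenula is a small epithalamic nucleus whose neurons project to the interpeduncular nucleus and release acetylcholine, substance P and glutamate.

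The gene lies on chromosome 5 of GRCm38 (mm10), plus strand, from 63649102 to 63810546, a span of 161445 bases. Its coding transcript of 8534 bases has 7 exons. The last of them, 6176 bases long, holds 72.4% of the transcript and 3930 of its 5226 coding bases, which spell 1742 codons. The first exon lies inside Gm9954, an annotated transcript of the minus strand from 63646170 to 63650894, which covers 1219 of the 10428 exonic bases of Nwd2, or 11.7%. Without the strand setting of the counting, reads from those bases cannot be told apart by strand. Gm9954 has no row of that name among the counted genes. If strand was ignored, its reads from those bases could have been counted as Nwd2. The share of the reads of Nwd2 that came from them was not measured, so the size of this uncertainty in its counts is unknown. Sequences are shown from both sides of the start of the gene, where Gm9954 lies on the opposite strand. The first gives the 250 bases up to the start of the gene (RefSeq, GRCm38.p6, chr5:63648853-63649102, plus strand), with CG dinucleotides in capitals. The second gives the first 151 coding bases, up to the end of exon 1 (GENCODE M21, chr5:63650170-63650320, plus strand), with the start codon in capitals.
Nwd2 upstream: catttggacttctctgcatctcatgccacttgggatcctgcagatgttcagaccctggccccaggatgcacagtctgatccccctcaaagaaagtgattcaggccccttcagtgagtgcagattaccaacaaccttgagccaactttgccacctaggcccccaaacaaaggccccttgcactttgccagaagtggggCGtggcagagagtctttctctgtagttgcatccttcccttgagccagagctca
Nwd2 coding start: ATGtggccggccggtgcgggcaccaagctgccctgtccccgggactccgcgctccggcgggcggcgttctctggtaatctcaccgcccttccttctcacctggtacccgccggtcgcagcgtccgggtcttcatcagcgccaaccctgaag
The upstream stretch held 1 CG dinucleotide and 53.6% G and C, where 32851 annotated starts of mouse genes had medians of 6 and 52.4%. At or below that CG count stood 18.8% of those starts. Searched on both strands, TATAAA (the TATA box) had 0 matches in these letters and was held by 12.4% of all starts. The CCAAT box had 0 matches and was held by 33.8%. The GC box, GGGCGG, had 0 matches and was held by 32.7%.

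**Figure D1:**
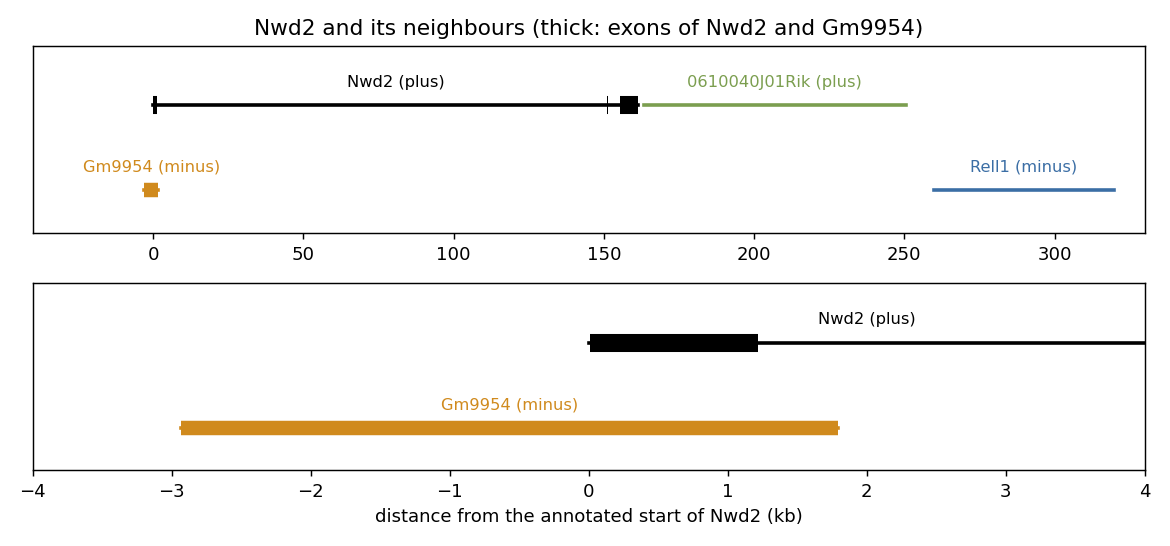
Map of Nwd2 and its neighbours by distance from the annotated start of Nwd2 in kilobases, over the whole gene (above) and around the start (below). Thick bars are exons of the coding transcript of Nwd2 and the single exon of Gm9954; thin lines are the spans of genes, with the strand in brackets. The antisense transcript Gm9954 covers the whole first exon of Nwd2.

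The libraries held between 42488448 and 67942836 gene reads and differed in the RNA of other cells mainly by replicate number. The 10 astrocyte markers summed to 105 to 107 TMM-scaled CPM in replicates 1 and 5 of both sides and to 383 to 1558 CPM in replicates 2 to 4. Markers of oligodendrocytes summed to 98.5 to 104 CPM and to 374 to 1636 CPM in the same libraries, those of thalamic neurons to 222 to 247 and to 660 to 1619 CPM. Microglial, endothelial and GABAergic markers followed the same split, at 7.25 to 8.73, 4.25 to 6.17 and 23.7 to 41.4 CPM against 14.9 to 39.5, 12.9 to 29.6 and 125 to 500 CPM. Markers of the lateral habenula summed to 45.1 to 53.9 CPM in replicates 1 and 5 against 101 to 303 CPM in the others, oligodendrocyte precursor markers to 2.39 to 3.36 against 10.4 to 43.5 CPM, choroid plexus markers to 1.62 to 2.57 against 1.17 to 6.83 CPM, and pineal markers to 0.0184 to 0.253 against 0.149 to 5.64 CPM. None of the markers on these lists was at 0 in all 10 libraries. Replicates 1 and 5 of a side were also closest to each other in their counts, with a chi-square per degree of freedom of 1.42 for the left pair and 1.12 for the right pair, where the other pairs within a side gave 4.04 to 15. They differed by more than counting noise (chi-square p = 2.44e-37 and 5.11e-05 over genes with few reads in a pair), which separate preparations of 1 RNA could also do, so whether each pair is 1 sample prepared again cannot be told from these counts. Every n of 5 takes them as separate samples, and values with each pair summed to 1 (n = 4) are given for the level and the side difference of Nwd2. All 16 markers of medial habenular neurons were measured, with sums of 6852 to 11010 CPM in left and of 5498 to 11520 CPM in right libraries. These sums ran the other way by replicate number, with 10470 to 11520 CPM in replicates 1 and 5, against 5498 to 8846 CPM in the other 6 libraries.

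Nwd2 was among the most read genes of every library. It had 181779, 126996, 126435, 133111 and 154360 reads in left replicates 1 to 5, and 188159, 167148, 110085, 74917 and 182774 reads in right replicates 1 to 5. Between 1 in 326 gene reads (left replicate 1) and 1 in 600 (right replicate 3) came from it. By reads it ranked 10th, 20th, 18th, 23rd and 12th of all genes in left replicates 1 to 5 and 11th, 12th, 30th, 22nd and 12th in right replicates 1 to 5, with a median rank of 15. Its length contributes to that rank. Per kilobase of annotated exon its rank was 62 to 105 on the left and 65 to 105 on the right, with a median of 80.5 among 23113 genes with a length. By mean CPM it stood 12th of 16250 tested genes, behind Ywhaz, Rtn1, Ywhae and Dclk1 and ahead of Gnas, Tubb4a and Ndrg4. Per kilobase, Dclk1, a doublecortin-like kinase, at 157 CPM and Gnas, the stimulatory G protein subunit, at 208 CPM stood below the 225 CPM of Nwd2. The other 5 of these genes stood above it, between 439 CPM for Ndrg4 and 1013 CPM for Tubb4a, a tubulin. Of the 5 genes with the highest mean CPM in these libraries, Rn45s, the precursor of ribosomal RNA, had no annotated length here. Map1b, Snap25, Gabbr1 and Atp5b had 683, 1204, 510 and 757 CPM per kilobase. With the length of the coding transcript in place of all annotated exons, Nwd2 had 275 CPM per kilobase.

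Scaled by library, Nwd2 stood at 2987, 1983, 2141, 1985 and 2842 CPM in left replicates 1 to 5. It stood at 2763, 2484, 1698, 1862 and 2725 CPM in right replicates 1 to 5. The sides overlapped over most of their range, with the highest value in left replicate 1 and the lowest in right replicate 3. The 4 libraries of replicates 1 and 5, lowest in glial RNA, lay between 2725 and 2987 CPM, and the other 6 libraries between 1698 and 2484 CPM. The range over all libraries was 1.76-fold. Fewer cells of a type and less RNA per cell cannot be told apart in such samples. The part of RNA from other cells in the level of Nwd2 was not tested.

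The order of the libraries by unscaled CPM ran from left replicate 1 at 3065 CPM through right replicate 1, left replicate 5, right replicate 5, right replicate 2, left replicate 3, left replicate 4, left replicate 2 and right replicate 4 to right replicate 3 at 1667.5 CPM. Exact 95% binomial intervals, which cover counting error only, were narrow (1658 to 1677 CPM in right replicate 3). Neighbours in the order with overlapping intervals were right replicate 1 and left replicate 5, and left replicates 4 and 2. The 4 libraries with the lowest glial score, the mean log2 CPM of astrocyte, oligodendrocyte, microglial and endothelial markers, were the first 4 in that order. Right replicate 2 followed them in both orders. Right replicate 3, with the highest glial score at 3.69, came last. Left replicate 4, with the second highest at 3.46, stood just above left replicate 2 with a score of 2.79. Unscaled CPM counts Rn45s among the gene reads, and Rn45s varied 12.3-fold over the libraries. It stood at 8726 TMM-scaled CPM in left replicate 4 and at 96500 in left replicate 2. The order without Rn45s was not examined.

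**Figure D2:**
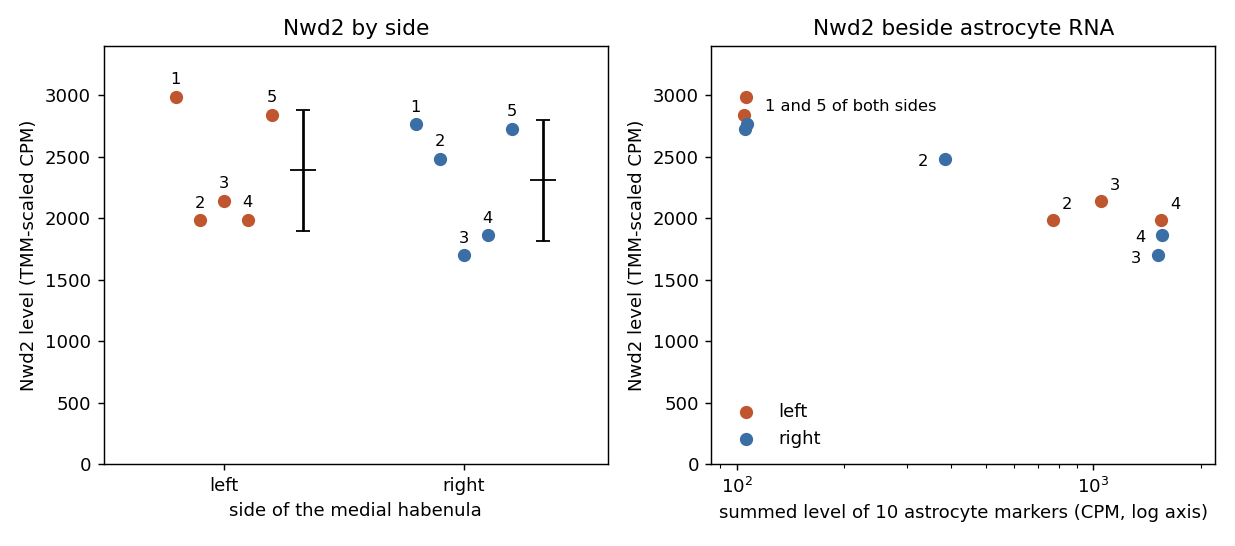
Left panel, Nwd2 level in TMM-scaled CPM for each library by side, with replicate numbers beside the points and the mean ± SD (n = 5 each) beside each group. Right panel, the same levels against the summed CPM of 10 astrocyte markers on a log axis; replicates 1 and 5 of both sides, at 105 to 107 CPM of astrocyte RNA, hold the 4 highest values.

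The study asked which transcripts of these neurons differ by side, and for Nwd2 no difference beyond the spread between libraries was found. Nwd2 averaged 2388 ± 488 CPM in left and 2306 ± 496 CPM in right libraries (SD, n = 5 each). The log2 fold change, left minus right, was 0.05 with a standard error of 0.19 and a 95% interval from -0.36 to 0.46 (edgeR quasi-likelihood test, adjusted p = 1 over all genes). An exact two-sided permutation test of its log2 CPM over all assignments of libraries to sides gave p = 0.794, where the smallest possible p is 0.00794. The same edgeR fit called 0 of 16250 genes (0%), with 90 genes (0.554%) at an unadjusted p under 0.05. DESeq2 and limma-voom with sample weights also called 0, with 141 and 2359 genes at an unadjusted p under 0.05. The edgeR fit with the glial score as a covariate called 0, with 494 such genes. By chance alone, that threshold would give more genes than either edgeR fit or DESeq2 did, and fewer than limma-voom did. The 0 calls therefore do not show that the sides are alike. Among the 8960 genes averaging 10 CPM or more, 51.5% had a smaller fitted fold change between the sides than Nwd2.

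By replicate number, Nwd2 was higher on the left in 4 of 5 pairs. The log2 difference of left over right was 0.11 for replicate 1, -0.33 for replicate 2, 0.33 for replicate 3, 0.09 for replicate 4 and 0.06 for replicate 5. Replicates 2 to 5 had the same lane numbers on both sides, 4, 5, 1 and 2, while replicate 1 had 7 (left) and 3 (right). Without a flow cell or run beside these numbers, it cannot be told whether the sides shared a sequencing lane. The glial score of left against right was -0.055 against 0.22 in replicate 1, 2.79 against 1.98 in replicate 2, 3.03 against 3.69 in replicate 3, 3.46 against 3.25 in replicate 4 and -0.16 against 0.16 in replicate 5. The side with the lower score had the higher level of Nwd2 in 4 of these 5 pairs, and in replicate 4 both were higher on the left. These scores are given beside the pairs, and their part in the differences was not tested. With replicates 2 to 4 alone Nwd2 averaged 2044 ± 88.7 CPM in left and 2011 ± 476 CPM in right libraries (SD, n = 3 each), a log2 fold change of 0.02. With replicates 1 and 5 of each side summed it averaged 2272 ± 486 CPM in left and 2195 ± 549 CPM in right libraries (SD, n = 4 each), a log2 fold change of 0.05.

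The sign of the fold change rested on single libraries. Without left replicate 1, left replicate 5, right replicate 3 or right replicate 4 it was -0.041, -0.016, -0.036 and -0.017. Weighted by library in limma-voom it was -0.22 (adjusted p = 0.314). Adjusted for the glial score it was 0.05 with a narrower 95% interval, from -0.12 to 0.21 (adjusted p = 0.999 in edgeR).

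The level of Nwd2 was set beside those of the 16 markers of medial habenular neurons. Per kilobase of exon, Nwd2 had a higher mean than 12 of the 16 markers, and in all 10 libraries it was above 8 of them. These 8 included Pou4f1, a transcription factor of habenular neurons, at 59.3 CPM per kilobase, Chat at 28.1 and Tac1, the substance P precursor, at 16.4. The remaining 5 were Slc5a7, the choline transporter, at 39.1, Chrnb3, a nicotinic receptor subunit, at 43.8, Slc17a6 and Slc17a7, vesicular glutamate transporters, at 70.5 and 87.5, and Calb2, the calcium-binding calretinin, at 101 CPM per kilobase. In all 10 libraries it was below Tac2, the neurokinin B precursor, at 540, and Nr4a2, a nuclear receptor, at 285 CPM per kilobase. The other 6 markers lay on both sides of it. Gpr151, an orphan receptor of habenular axons, and Gng8, a G protein subunit, had means of 221 and 222 CPM per kilobase and were below Nwd2 in 5 and 6 libraries. Chrnb4 and Lrrc55, a nicotinic receptor subunit and an auxiliary subunit of BK channels, had 266 and 265 CPM per kilobase and were below it in 1 and 3 libraries. Chrna3, the partner subunit of Chrnb4, and Slc18a3, the vesicular acetylcholine transporter, had 191 and 171 CPM per kilobase and were below it in 9 libraries each.

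**Figure D3:**
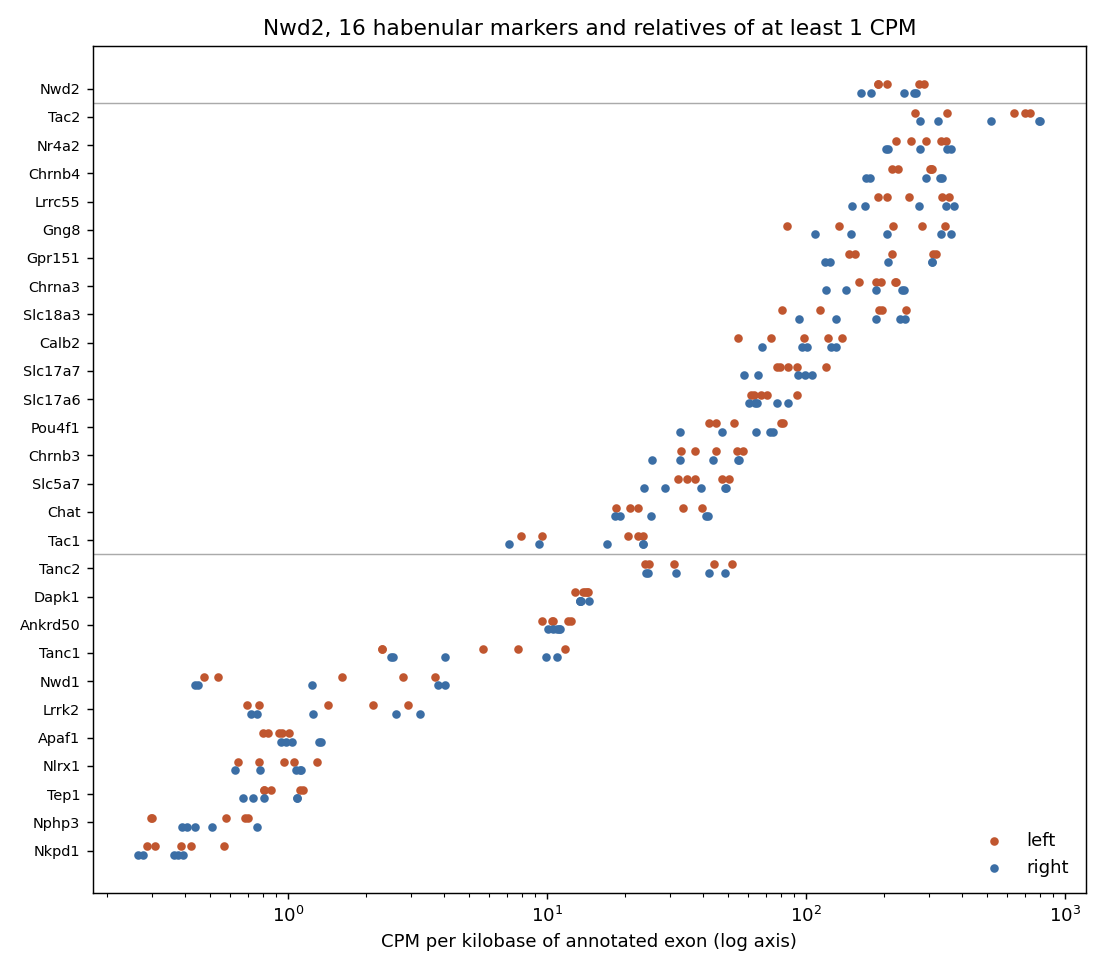
CPM per kilobase of annotated exon, on a log axis, in each of 5 left and 5 right libraries for Nwd2, 16 habenular markers and the 11 of 28 relatives with a mean of at least 1 CPM. Nwd2, 78th of 23113 genes by mean CPM per kilobase, lies among the most abundant habenular markers and above the points of every relative.

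Nwd2 varied less over the libraries than nearly all of these markers. Its 1.76-fold range was narrower than that of 15 of the 16, which spanned 1.78-fold for Nr4a2 to 4.32-fold for Gng8. Slc17a6 alone had a narrower one, 1.53-fold, with 331 to 348 CPM in replicates 1 and 5 and 325 to 498 CPM in the other libraries, so that these ranges overlapped. Its lowest value was in right replicate 2 and its highest in left replicate 4. Apart from right replicate 2, every library of replicates 2 to 4 was above all of replicates 1 and 5 for Slc17a6, unlike the sum of the markers. On the log2 scale Nwd2 spanned 0.82 and the mean of the markers 1.10. The SD of log2 CPM of Nwd2 over the 10 libraries was 0.29, against a median of 0.26 over 8959 other genes averaging 10 CPM or more, of which 56.1% had a smaller one.

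Relative to the mean log2 CPM of the 16 markers, Nwd2 stood 2.66, 2.33, 2.85, 2.82 and 2.51 log2 units higher in left replicates 1 to 5. It stood 2.46, 2.66, 2.83, 2.72 and 2.41 log2 units higher in right replicates 1 to 5. The lowest and the highest of these values were both on the left, in replicates 2 and 3, and the sides overlapped throughout. The means were 2.63 ± 0.22 in left and 2.61 ± 0.18 in right libraries (SD, n = 5 each), a difference of 0.02 (exact two-sided permutation p = 0.905). That difference was below 0 without left replicate 3 (-0.034), left replicate 4 (-0.028), right replicate 1 (-0.019) or right replicate 5 (-0.033), with replicates 1 and 5 summed (-0.013) and in replicates 2 to 4 alone (-0.069). Of the 16 markers themselves 11 had a positive and 5 a negative log2 fold change between the sides, with a median of 0.05, where the median of all genes tested was -0.01, and 0 passed the threshold.

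**Figure D4:**
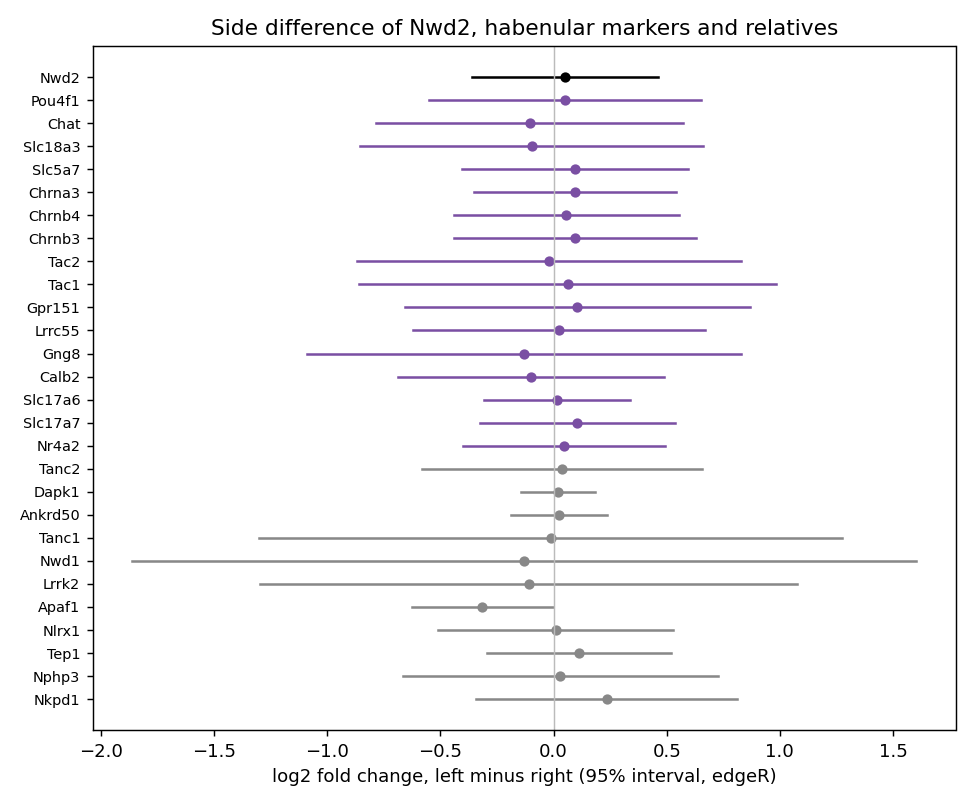
Log2 fold change, left minus right, with its 95% interval from the edgeR fit for Nwd2 (black), 16 habenular markers (purple) and the 11 relatives with a mean of at least 1 CPM (grey). The interval of Nwd2 runs from -0.36 to 0.46, and Apaf1 alone among the genes drawn has an interval that does not reach 0, with an adjusted p of 1.

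The relatives of Nwd2 were far less abundant. Nwd2 was chosen for its abundance and ranked 78th of 23113 genes by mean CPM per kilobase. Nearly all genes therefore lay below it, and its place above the relatives is no trait of this family. The list held 28 genes of NACHT, STAND-type and related nucleotide-binding proteins, all of them below Nwd2 per kilobase of exon in all 10 libraries. Their mean level was under 1 CPM for 17 and at least 10 CPM for 6. The 6 were Tanc2 and Tanc1, scaffolds of the postsynaptic side, Dapk1, a death-associated kinase, Ankrd50, a protein of endosomal recycling, Nwd1, and Lrrk2, a kinase with a GTPase domain. Per kilobase these stood at 34.6, 5.96, 13.8, 10.9, 1.91 and 1.65 CPM, so that Nwd2 was 6.50-fold above the highest of them, Tanc2, and 118-fold above Nwd1. Apaf1 had 1.01 and Tep1, a vault and telomerase-associated protein, 0.911 CPM per kilobase. The inflammasome sensor Nlrp3 had 0 to 26 reads in a library, and Nod1 and Nod2, sensors of bacterial cell walls, 11 to 105 and 3 to 57 reads. Reads of the Naip and Nlrp1 genes, which have close copies, are uncertain, and each of these genes had at most 17 reads in a library.

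Nwd1, a relative with the same pair of domain types, differed from Nwd2 in its profile as well as in its level. It stood at 6.49, 19.6, 33.6, 44.5 and 5.71 CPM in left replicates 1 to 5, and at 5.30, 14.9, 48.8, 45.9 and 5.44 CPM in right replicates 1 to 5. It was lowest in replicates 1 and 5 of both sides, where Nwd2 was highest, and its range was 9.20-fold. Lrrk2 was likewise lowest in replicates 1 and 5, with 8.20 to 9.13 CPM there and 14.8 to 38.2 CPM in the other libraries. Tanc1 had 33.5 to 36.9 CPM in replicates 1 and 5, against 58.8 to 171 CPM elsewhere. Dapk1 was even over the libraries, at 116 to 131 CPM. Summed markers of astrocytes, oligodendrocytes and their precursors, microglia, endothelium, thalamus, lateral habenula and GABAergic neurons were also lowest in replicates 1 and 5. The part of any of these cells in the level of Nwd1 was not tested.

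Between the sides the relatives showed no call. Of 19 tested relatives 0 rose and 0 fell on the left at an adjusted p under 0.05 in edgeR, as 0% of all genes did, and DESeq2 and limma-voom also called 0. The other 9 relatives, with 0 to 35 reads in a library, did not pass the filter on low counts. For the tested ones the median log2 fold change was 0.02, with 11 above and 8 below 0, and the median of all genes tested was -0.01. Apaf1 and Nlrc5 had an unadjusted p under 0.05 in edgeR and an adjusted p of 1. Apaf1 stood at 8.16 ± 0.76 CPM in left and 10.2 ± 1.75 CPM in right libraries (SD, n = 5 each), a log2 fold change of -0.31. Nlrc5, an activator of MHC class I genes, had 2 to 35 reads in a library.

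Nwd2 had a profile over the libraries that many other genes shared. Likeness was measured as the root mean square difference of centred log2 CPM over the 10 libraries, among 8959 other genes averaging 10 CPM or more, and the median over all of them was 0.30. The libraries differ in side, lane number and amount of glial RNA, and the profile of any gene can follow these. Likeness therefore says nothing of shared function or control. A difference under 0.15 was found for 821 genes. The nearest was Mcc, known from mutations in colorectal cancer, at 0.040, with 141, 101, 98.7, 93.0 and 139 CPM in left replicates 1 to 5 and 135, 118, 84.7, 89.2 and 130 CPM in right replicates 1 to 5. Like Nwd2, it was higher in replicates 1 and 5 than in any other library of its side.

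The next were Golph3l, a Golgi phosphoprotein, at 0.046, Pphln1, a component of the HUSH silencing complex, at 0.053, and Cyth3, an exchange factor of ARF GTPases, at 0.057. Rbms3, an RNA-binding protein, Tmem167, Nsmce4a, a subunit of the SMC5/6 complex, and Stx12, an endosomal syntaxin, followed with differences of 0.058 to 0.060. The most abundant of these 8, Rbms3, averaged 451 ± 79.3 CPM in left and 440 ± 93.2 CPM in right libraries (SD, n = 5 each), and the least abundant, Nsmce4a, 27.1 ± 5.37 and 25.7 ± 5.10 CPM. Per kilobase of exon they lay between 5.24 CPM for Nsmce4a and 87.3 CPM for Stx12. Among the neighbours by level, Dclk1 was also close in profile, with a difference of 0.062, next after these 8. Of the 16 habenular markers the closest were Nr4a2 at 0.12, Slc5a7 at 0.13 and Chrna3 at 0.15, and the farthest were Gng8 at 0.50 and Tac1 at 0.47.

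**Figure D5:**
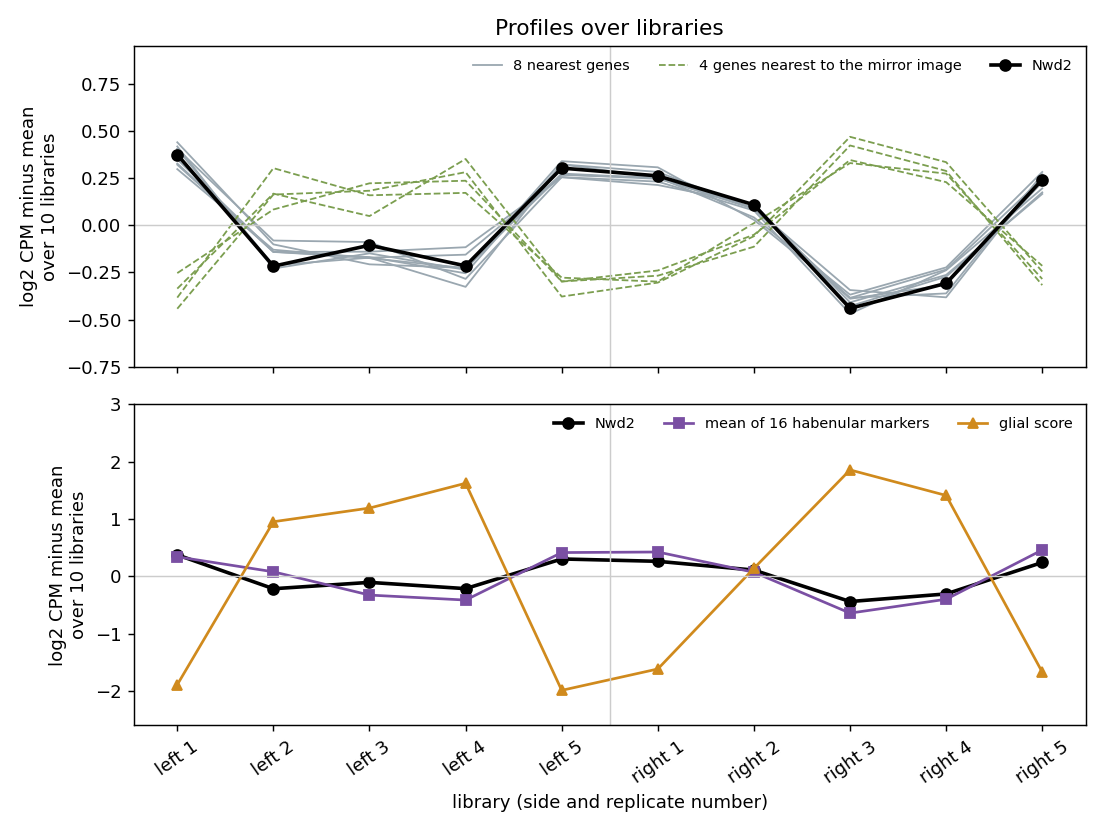
Log2 CPM minus the mean over 10 libraries, for each left and right library. Above, Nwd2 with the 8 genes nearest in profile and the 4 nearest to its mirror image; below, Nwd2 with the mean of 16 habenular markers and the glial score, which runs the other way with a larger amplitude.

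The 4 genes nearest to the mirror image of Nwd2 were Pkd1, the gene of polycystin 1, Adgrl1, an adhesion receptor of nerve terminals, Sort1, a sorting receptor, and Hpcal4, a neuronal calcium sensor. Pkd1 ranged over 26.9 to 30.8 CPM in replicates 1 and 5, against 35.1 to 50.5 CPM in the others. Adgrl1 ranged over 248 to 267 CPM in replicates 1 and 5, against 326 to 407 CPM in the others. For both, the libraries that were highest for Nwd2 were lowest.

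The genes beside Nwd2 on chromosome 5 were far below it. Nwd2 was chosen for its abundance and stood 12th of 16250 tested genes by mean CPM, so this says little about the locus. The next coding gene downstream, 0610040J01Rik, begins 1816 bases after its end on the same strand and had 10 to 46 reads in a library. Per kilobase of exon, Nwd2 stood 1340-fold above it. Rell1, a TNF receptor-like protein 98350 bases away on the minus strand, averaged 23.9 ± 4.80 CPM in left and 25.2 ± 4.69 CPM in right libraries (SD, n = 5 each). Like Nwd2, Rell1 was higher in replicates 1 and 5 (28.1 to 29.0 CPM) than in replicates 2 to 4 (17.2 to 26.1 CPM). Upstream, Dthd1, a death domain protein 760793 bases away, had 2 to 105 reads in a library. Arap2, a GTPase-activating protein 882942 bases away, averaged 65.6 ± 15.4 CPM in left and 65.0 ± 15.8 CPM in right libraries and was lowest in replicates 1 and 5 (48.1 to 55.2 CPM).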

How the data were processed

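The values deposited by the authors are raw read counts by gene, with no normalisation, in a separate table for each library. STAR 2.0.0e, HTSeq and mm10 are named in the submitters' processing notes. The annotation, strand setting and filters remained unknown, being not given in the sources used here. Of 32537 rows, 6 name no gene and entered no library size and no test. They include reads outside genes, 13.6% to 18.9% of unique alignments, and reads that fit several genes, 2.25% to 2.81%. Of 32531 gene rows 23113 matched 1 gene of GENCODE M21 (GRCm38), which gave lengths and coordinates. Sides were compared over all genes in edgeR 4.0.16 under R 4.3.3 (filterByExpr with a minimum count of 10, TMM scaling, robust quasi-likelihood F test, side as the only term, two-sided, Benjamini-Hochberg adjusted p under 0.05). Log2 CPM has a prior count of 2. Alternatives were other scalings and filters, DESeq2 1.42.0, limma 3.58.1 (voom), a block for the replicate number, a covariate for the glial score, and other sets of libraries. The edgeR fit was first tested on simulated counts. These were drawn with no split of the libraries by replicate number, so they cannot show how the fit behaves with that split. Figures were drawn with matplotlib 3.10.9.

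Genes named were Nwd2; the 8 nearest in profile and the 4 nearest to its mirror image; the 4 above and 4 below it by mean CPM and the 5 highest; neighbouring coding genes; members of the lists. A gene that this rule names is not reported here. Nwd2 and the lists were chosen with earlier results of these data known. With at least 74917 reads of Nwd2 in a library, its counting error was far below its range over the libraries. Some neighbours in the order of libraries still had overlapping intervals, as given above.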

Additional observations from a re-analysis of the deposited data

Results flagged for a closer look

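In groups of 5 libraries, 1 library was set apart from the others of its side by a gap of more than 0.71 of the range (Dixon's 95% value) in 4 of 174 groups examined, where chance gives about 1 in 20. Nwd2 was not among them. Atp5b, the catalytic subunit of ATP synthase, stood at 2621 CPM in right replicate 2 and at 3225 to 3411 CPM in the other right libraries. Dapk1 stood at 131 CPM in right replicate 2 and at 121 to 122.5 CPM in the other right libraries. Nlrc5 stood at 0.406 CPM in left replicate 3 and at 0.0368 to 0.0937 CPM in the other left libraries. Kl, a gene of choroid plexus, stood at 1.76 CPM in right replicate 3 and at 0.373 to 0.566 CPM in the other right libraries.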

How the results depend on the processing

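The count of 0 genes called between the sides and of 0 relatives called was the same under all 21 alternatives tried for each. The log2 fold change of Nwd2 stayed positive and uncalled in 16 of 21 alternatives; with limma-voom and sample weights it was -0.22, and leaving out each library it ranged from -0.041 to 0.12. The difference relative to habenular markers was -0.013 with replicates 1 and 5 summed, -0.069 with replicates 2 to 4 alone and -0.013 with the list as summed CPM, and leaving out each library it ranged from -0.034 to 0.095. The cause of these changes of sign was not tested. Levels of Nwd2 moved by less than 1 SD under all 15 alternatives on each side, and leaving out each library gave 2238 to 2486 CPM on the left and 2189 to 2461 CPM on the right. The median rank of 15 by reads was 80.5 per kilobase, since Nwd2 is long. Of the 8 genes nearest in profile, 5 were kept with replicates 1 and 5 summed, 2 with replicates 2 to 4 alone and 4 with a correlation distance, and 3 to 8 when each library was left out. With the replicate number as a block (replicate block) the fold change of Nwd2 was 0.06 and the count of calls 0 (297 genes reached an unadjusted p of 0.05). The relative difference was 0.02. Deviations of same-numbered libraries correlated at 0.0962 to 0.873 across genes, and left replicates 2 and 4 were most like right replicate 3, so that not every library was most like its own number, so the numbers were not taken to pair the libraries.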

Other observations

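Chosen after their values were seen, a few genes came near Nwd2 in profile under other settings. With replicates 2 to 4 alone the nearest was Ebf1, a helix-loop-helix transcription factor, at a root mean square difference of 0.032. Ebf1 averaged 169 ± 22.7 CPM in left and 168 ± 35.5 CPM in right libraries (SD, n = 5 each). With a distance from correlation in place of the root mean square difference, Gpkow, Ptpdc1, Kctd12b and Irx2 joined the nearest 8. Kctd12b, an auxiliary subunit of GABA-B receptors, had rank 4 there and Irx2, an Iroquois homeodomain factor, rank 8. By root mean square difference over all libraries, Kctd12b had rank 473 and Irx2 rank 255. Kctd12b averaged 107 ± 32.5 CPM in left and 103 ± 30.7 CPM in right libraries with a 2.16-fold range, and Irx2 151 ± 41.2 and 148 ± 42.8 CPM with a 2.14-fold range.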
